A study of Mus musculus with 4 samples.

Results

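Cluster 11 is a small population of leukocytes from mouse tumours that carried the genes of conventional dendritic cells. Its members were the cells with cluster number 11 in the authors' deposited table of cells, which gives numbers and no cell type names, and they made up 349 of the 14491 cells with a column in the expression files. Of these, 83 came from tumours of mice given anti-PD-1 (clone RMP1-14), 81 from mice given anti-CTLA-4 (clone 9D9), 103 from mice given both antibodies (the combination) and 82 from mice given rat IgG2a isotype control antibody. All mice were wild-type 129S6 animals bearing transplanted tumours, and each injection held 200 µg, given intraperitoneally on days 3, 6 and 9. Each group was 1 library, made with the version 1 10x Genomics Chromium kit from live CD45+ cells sorted out of collagenase-digested tumours. The sources used here give neither the tumour line nor the number of mice behind a library. With 1 library per group, no difference between antibody groups could be tested, and intervals around them cover counting error only.

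Conventional dendritic cells take up material in tissues and present it to T cells. The type 1 subset depends on the transcription factors IRF8 and BATF3, carries the chemokine receptor XCR1 and the dead-cell receptor CLEC9A, and is known for presenting taken-up antigen on MHC class I to CD8 T cells. The type 2 subset carries SIRPα and C-type lectins such as MGL2 and CD209a, depends in part on IRF4, and is known for presenting antigen on MHC class II to CD4 T cells. Cells of either subset that mature switch on the lymph node homing receptor CCR7 and are then called migratory.

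The sums of unique molecular identifiers (UMIs, each a counted transcript molecule) in cluster 11 were 366790 in the anti-PD-1 library, 333797 in the anti-CTLA-4 library, 362337 in the combination library and 398181 in the control library. A cell held a median of 4445, 4123 and 3320 UMIs under anti-PD-1, under anti-CTLA-4 and under the combination, and 4822.5 in the control library. Among all listed cells, 109 barcodes occurred in more than 1 library, 3 of them in cells of cluster 11, and no barcode was shared between cells of cluster 11 in different libraries. The cluster made up 2.43% of the listed cells of the anti-PD-1 library (exact 95% binomial interval 1.94 to 3.00), 2.43% under anti-CTLA-4 (1.93 to 3.01), 2.61% under the combination (2.14 to 3.16) and 2.16% in control (1.72 to 2.68). Each interval overlapped the others, and the ratios of the shares to the control share were 1.12 (0.818 to 1.54), 1.12 (0.816 to 1.55) and 1.21 (0.895 to 1.63).

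The markers of conventional dendritic cells were concentrated in the cluster. A UMI of Xcr1 was found in 15.2% of its cells, against 0.153% of the cells of macrophage clusters 1, 2, 4 and 7, none of the 157 cells of cluster 16, 1.52% of cluster 17 and 0.165% of T cell cluster 3, cells that should lack these genes. Clec9a was found in 9.46% of cluster 11, against 0.288% of macrophage cells and 0 of 1215 cells of T cell cluster 3. Mgl2 was found in 44.7% of cluster 11, against 8.16% of macrophage cells and 0.658% of T cell cluster 3. Naaa, a lysosomal amidase, was found in 61.6% of cluster 11, against 20.8% of macrophage cells and 4.12% of T cell cluster 3. All 4 were more frequent in cluster 11 than in these other sets, and its median depth of 3982 UMIs per cell was above the 2002 UMIs of T cell cluster 3. After each cell was thinned to 1000 UMIs, which left out 14 cells of the cluster, the order against T cell cluster 3 remained, with Xcr1 in 4.48% against 0.0834% of cells, Mgl2 in 27.2% against 0.5% and Naaa in 36.7% against 1.58%. Thinned, Clec9a was left in 4 of 335 cells of cluster 11 (1.19%), 0.645% of cluster 16 and 0 cells of T cell cluster 3. In cluster 17 it was left in 4 of 132 cells (3.03%), so its order against that cluster turned.

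**Figure D1:**
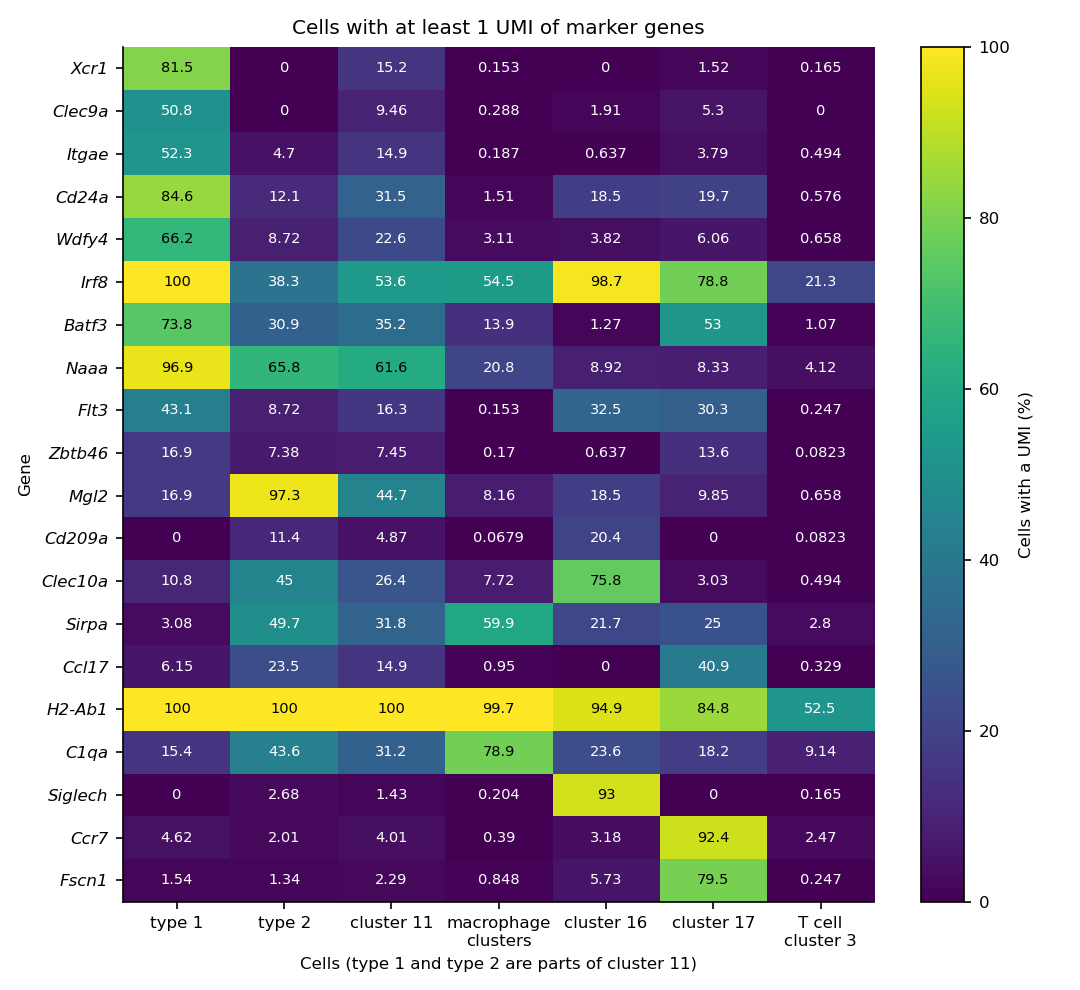
Share of cells with at least 1 UMI of 20 genes (rows) in type 1 and type 2 cells, all of cluster 11, the macrophage clusters, clusters 16 and 17 and T cell cluster 3 (columns), in percent. Xcr1 reached 81.5% in type 1 cells, Mgl2 97.3% in type 2 cells, Siglech 93.0% in cluster 16 and Ccr7 92.4% in cluster 17.

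The genes with the highest level in cluster 11 relative to all other listed cells, given as a description since the clusters were made from these genes, were led by Plet1, a surface protein of epithelial and some dendritic cells, found in 35.5% of its cells and higher by 5.81 on the log2 scale. Timd4, a receptor for phosphatidylserine on dying cells, was higher by 4.39, and Cd24a, a surface glycoprotein of type 1 cells, by 4.06. Cbfa2t3, a transcriptional corepressor, was higher by 3.47. Cst3, which encodes the protease inhibitor cystatin C, was found in 94.0% of cells and was higher by 3.29. Genes of the MHC class II pathway followed, with H2-Oa higher by 3.39, H2-Ob by 3.00 and H2-DMb2 by 2.81. Of the marker genes fixed for either conventional type, Flt3, the receptor for the growth factor of dendritic cells, was found in 16.3% of cluster 11 and 0.153% of macrophage cells. After the same thinning, Flt3 was left in 3.88% of cluster 11, 9.03% of cluster 16 and 11.4% of cluster 17. Flt3 therefore set cluster 11 as a whole apart from macrophages but not from clusters 16 and 17. In the type 1 and type 2 cells sorted below, thinning left it in 7 of 65 (10.8%) and 2 of 148 cells (1.35%). Zbtb46, a transcription factor of conventional dendritic cells, was found in 7.45% of cluster 11 and 0.170% of macrophage cells. Cluster 17 carried Zbtb46 as well, in 2 of 26 cells under anti-PD-1 and 2 of 37 under anti-CTLA-4. There it was also in 8 of 38 cells under the combination and 6 of 31 in control.

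The label did not cover every cell. At least 2 UMIs over the 5 B cell markers Cd79a, Cd79b, Ms4a1, Pax5 and Ebf1 were found in 23 of the 349 cells, 5 under anti-PD-1, 4 under anti-CTLA-4, 6 under the combination and 8 in control. Each of the other 18 clusters held between 0 and 4 such cells. Cd79a, a subunit of the B cell receptor, was found in 20 of the 23 cells and Ms4a1, which encodes CD20, in 19. Cd79a was at 1418 CPM (counts scaled to the total of the cell set) in these cells and at 0 CPM in the type 1 and type 2 cells sorted below. Ms4a1 was at 968 CPM in these cells, 0 CPM in type 1 and 1.40 CPM in type 2, where it had 1 UMI. Of the macrophage list, 11 of 11 genes were found in cluster 11, with a summed level between 3850 and 6508 CPM over the 4 libraries, against 27166 to 37410 CPM in the macrophage clusters. All 5 basophil and mast cell markers were at 0 UMIs, and the summed neutrophil and fibroblast lists were at 32.2 and 8.90 CPM. The part of macrophage RNA in cluster 11 was not tested.

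Cells were sorted by 4 genes into type 1, with a UMI of Xcr1 or Clec9a, and type 2, with a UMI of Mgl2 or Cd209a and none of Xcr1 or Clec9a. Type 1 held 65 cells, 53 with Xcr1, 33 with Clec9a and 21 with both. Type 2 held 149 cells, 145 with Mgl2, 17 with Cd209a and 13 with both. The other 135 cells, among them the 23 cells with B cell markers, had no UMI of the 4 genes, and their median depth of 2243 UMIs was below the 5048 UMIs of type 1 and the 4708 UMIs of type 2. Of the type 1 cells, 22 were placed by 1 UMI and 11 also held Mgl2, while none held Cd209a. Of the type 2 cells, 33 were placed by 1 UMI.

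The promoters of Xcr1 and Mgl2 are shown because these genes placed most cells of type 1 and of type 2. Each window runs from 250 bases before to 50 bases after the transcription start, from RefSeq on GRCm38.p6, written on the strand of the gene. Xcr1 lies at chr9:123861980-123862279 on the minus strand and Mgl2 at chr11:70130107-70130406 on the plus strand.
Xcr1: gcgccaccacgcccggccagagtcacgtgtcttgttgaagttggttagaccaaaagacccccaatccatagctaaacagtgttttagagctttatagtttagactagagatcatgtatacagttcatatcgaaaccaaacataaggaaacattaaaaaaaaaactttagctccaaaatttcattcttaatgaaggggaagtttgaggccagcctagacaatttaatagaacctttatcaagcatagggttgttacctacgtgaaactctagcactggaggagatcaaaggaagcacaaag
Mgl2: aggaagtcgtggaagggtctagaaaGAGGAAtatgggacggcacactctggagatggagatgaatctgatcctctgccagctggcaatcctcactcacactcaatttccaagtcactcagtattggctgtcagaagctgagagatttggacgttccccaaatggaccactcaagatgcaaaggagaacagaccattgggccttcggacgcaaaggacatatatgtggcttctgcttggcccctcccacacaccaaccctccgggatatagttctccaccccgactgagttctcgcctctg
Capitals mark GAGGAA, the core that the myeloid factor PU.1 is known to bind. TGANTCA, the core bound by AP-1 and BATF proteins, was searched as well, both on either strand, and each motif was counted on its own whether or not matches overlapped. Of the 4 sorting genes, Mgl2 held 1 match of GAGGAA and the others, Clec9a and Cd209a included, held neither motif. Over the genes that differed between the types, GAGGAA was present in 27 of 80 promoters of genes higher in type 1 (33.8%) and in 35 of 116 promoters of genes lower in type 1 (30.2%), against 26.1% of the 1294 tested genes with a promoter and 28.3% of all 27025 promoters. TGANTCA was present in 5 of 80 (6.25%) and 12 of 116 (10.3%), against 6.801% of tested genes and 7.93% of all promoters. These shares describe letters, not binding.

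Type 1 cells made up 31.9% of the 47 typed cells under anti-PD-1 (exact 95% interval 19.1 to 47.1), 31.4% of 51 under anti-CTLA-4 (19.1 to 45.9), 34.3% of 67 under the combination (23.2 to 46.9) and 22.4% of 49 in control (11.8 to 36.6). The control share was the lowest, and every interval overlapped the others. After thinning to 1000 UMIs the order did not hold, with 18.2%, 27.6% and 21.1% in the treated libraries and 22.7% in control. With 1 library per group, the balance of the types could not be tested between groups.

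Type 1 and type 2 cells differed in a broad set of genes. UMIs were summed by type within each library and compared with edgeR's quasi-likelihood test, with the library as a block and Benjamini-Hochberg adjustment over all 1608 genes tested; the 4 sums of each type are replicates of a contrast made inside a library, although the libraries differ in antibody. At an adjusted p below 0.05, 96 genes rose in type 1 relative to type 2 (5.97% of those tested) and 142 fell (8.83%). Of these 238 genes, 234 had the same direction in all 4 libraries, and for 208 the 4 values of type 1 did not overlap the 4 values of type 2. Both counts are over genes picked by the test on the same sums, so they add no support. The shares over all genes tested were not counted. The sorting genes Xcr1, Clec9a, Mgl2 and Cd209a were left out of the calls. The count filter could take a gene by its level in either type, so the counts by gene list below are descriptions. Xcr1 averaged 305 ± 17.4 CPM in type 1 and 0 in type 2, and Mgl2 averaged 79.9 ± 66.8 CPM in type 1 and 1238 ± 187 CPM in type 2 (SD, n = 4 each).

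Genes of the type 1 programme rose together: 13 of the 15 measured marker genes that were not used for sorting passed the test in type 1, none fell, and their median log2 fold change was 3.21, against 0.01 over all genes tested. The list held 20 such genes. A gene could pass the count filter through its level in 1 type alone, so these counts are a description. Irf8, the transcription factor that type 1 cells depend on, was at 2893, 1750, 2492 and 1578 CPM in type 1 sums of the anti-PD-1, anti-CTLA-4, combination and control libraries, against 327, 210, 362 and 131 CPM in type 2 sums. Its lowest type 1 value was more than 4 times its highest type 2 value, and the log2 fold change was 3.21 ± 0.17 (SE, adjusted p = 9.77e-07, edgeR). Batf3, its partner factor, was at 283, 216, 293 and 263 CPM in type 1 and at 90.1, 235, 115 and 45.4 CPM in type 2. It was higher in type 1 in 3 of 4 libraries and not under anti-CTLA-4, with a log2 fold change of 1.35 ± 0.39 (adjusted p = 0.0381, edgeR). Naaa was at 1916, 1657, 1992 and 2180 CPM in type 1 and at 456, 330, 466 and 565 CPM in type 2, a log2 fold change of 2.19 ± 0.16 (adjusted p = 4.74e-06, edgeR).

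Among the genes with the largest rise in type 1 were several with known roles in antigen uptake and cell contact. Wdfy4, which type 1 cells need to cross-present cell-associated antigen, was at 270, 237, 293 and 601 CPM in type 1 and 16.9, 31.8, 10.96 and 15.1 CPM in type 2, a log2 fold change of 4.22 ± 0.42. Cadm1, an adhesion molecule that binds a receptor on cytotoxic lymphocytes, averaged 196 ± 84.2 CPM in type 1 and 8.63 ± 3.93 CPM in type 2 (SD, n = 4), a log2 fold change of 4.46. Rab7b, a small GTPase of late endosomes, rose by 4.49 and Itgae, which encodes the integrin CD103, by 3.29. Cd24a rose by 3.71 and Ppt1, a lysosomal thioesterase, by 3.27, with 1168 ± 164 CPM in type 1 and 131 ± 51.2 CPM in type 2. Gcsam, a signalling adaptor first described in germinal centre B cells, had 66 UMIs in type 1 and 1 UMI in type 2. Cxx1a and Slc8b1, a mitochondrial sodium and calcium exchanger, rose by 3.91 and 3.62. Btla, an inhibitory receptor of the immunoglobulin superfamily, rose by 3.16. It was the only 1 of 6 measured costimulatory and inhibitory genes that passed (16.7%, against 5.97% of all genes tested). Every gene of this paragraph was higher in type 1 in 4 of 4 libraries, with adjusted p-values between 2.02e-05 and 0.00174 (edgeR).

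Of 18 type 2 markers not used for sorting, 9 were measured, and all 9 fell in type 1, with a median of -3.14. A gene could pass the count filter through its level in 1 type alone, so this count is a description. Csf1r (-3.14) and Ccr2 (-1.33) of this list are also on the macrophage and monocyte lists. Sirpa, an inhibitory receptor for CD47, was at 0, 30.9, 0 and 0 CPM in type 1 (3 UMIs in all) and at 169, 140, 181 and 171 CPM in type 2. Clec10a, a galactose-binding lectin, was at 25.7, 41.2, 37.8 and 25.1 CPM in type 1 and at 546, 318, 241 and 121 CPM in type 2, a log2 fold change of -2.98 ± 0.40 (adjusted p = 0.000385, edgeR). No type 1 value reached the lowest type 2 value of either gene. Clec4n, which encodes the fungal sensor dectin-2, fell most among genes seen in both types, at 12.9, 51.5, 9.44 and 25.1 CPM in type 1 and at 1284, 1131, 932 and 999 CPM in type 2, a log2 fold change of -5.32 ± 0.34 (adjusted p = 3.05e-06, edgeR). In all, 5 of 6 measured C-type lectins fell (83.3%, against 8.83% of all genes tested), out of 32 on the list. Clec4a2, Clec4a1 and Clec4a3 had 4, 4 and 5 UMIs in type 1 against 116, 101 and 113 in type 2. The limit of the count filter holds for this count as well. AA467197, AY761185 and Ffar2, a receptor for short-chain fatty acids, were at 0 UMIs in all type 1 sums. Against a floor of 3 counts over the type 1 cells, they were at least 25.03-fold, 26.5-fold and 12.6-fold lower in type 1. The log2 fold change was -4.97 for S100a4, a calcium-binding protein, -4.75 for Mcemp1, and -4.41, -4.41 and -4.30 for the membrane proteins Ms4a6d, Ms4a4c and Tmem176a. Dok2, an adaptor that restrains kinase signalling, was at -4.24.

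Macrophage genes moved with this contrast. Of the measured macrophage list, 5 of 6 genes fell in type 1 (83.3%, against 8.83% of all genes tested). This count is a description, by the same limit of the count filter. C1qa was at -3.33 and Csf1r, the receptor for macrophage growth factor, at -3.14 (adjusted p = 0.000879 and 0.000439, edgeR). Of the measured monocyte genes, 2 of 3 fell (66.7%). The summed macrophage list was between 859 and 2120 CPM in type 1 over the libraries and between 4676 and 9813 CPM in type 2. A UMI of a C1q gene was found in 31 of 65 type 1 and in 94 of 149 type 2 cells. Without those cells, an alternative chosen after the data were seen, 657 genes could be tested and 26 rose and 50 fell, of which 23 and 44 were among the genes called with all cells. The remaining part of macrophage RNA in the contrast was not tested.

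**Figure D2:**
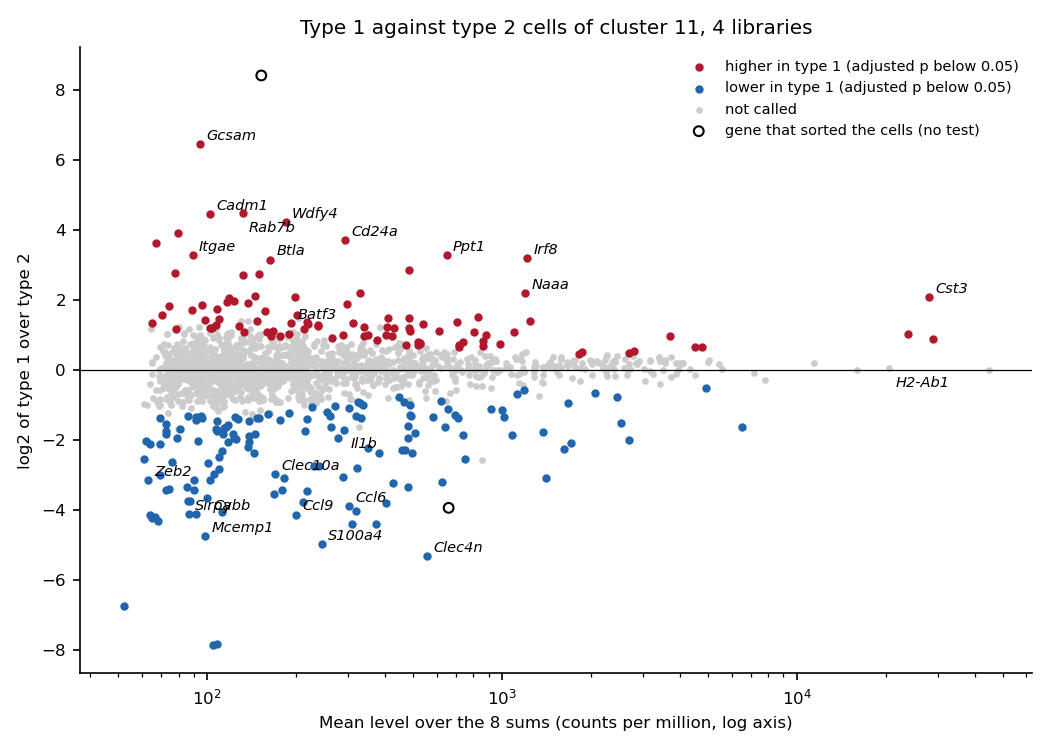
log2 of type 1 over type 2 (vertical) against the mean level of a gene over the 8 sums (CPM, log axis) for the 1608 tested genes and the sorting genes that passed the filter (open circles). Points below -6 are the 3 genes with 0 UMIs in type 1, whose plotted fold change depends on the prior count.

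Antigen presentation on MHC class II was not separated between the types at the level of its structural genes. H2-Ab1, a class II chain, was at 21861, 21872, 19872 and 17788 CPM in type 1 and at 20381, 21202, 19624 and 21366 CPM in type 2. The groups overlapped, and the log2 fold change was 0.06 ± 0.14 (adjusted p = 0.838, edgeR). Of 13 measured genes of the class II pathway, 3 (23.1%, against 8.83% of all genes tested) fell in type 1, and all 3 act in the processing of antigen: the proteases Ctss (-1.52) and Lgmn (-1.63) and the thiol reductase Ifi30 (-1.80). Of 19 genes of class I presentation, 5 rose (26.3%, against 5.97% of all genes), among them the peptide transporter subunit Tap2 (1.23), the immunoproteasome subunit Psmb9 (0.79), the proteasome activator Psme1 (0.76) and the chaperone Pdia3 (0.76), and 1 fell (5.26%). Of 13 genes linked to cross-presentation, 2 rose (15.4%; Wdfy4 and Rab11a, a GTPase of recycling endosomes, at 1.35) and 3 fell (23.1%), among them Cybb, an NADPH oxidase subunit (-3.65). Over all genes tested the median log2 fold change was 0.01.

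Chemokines and sensing genes were lower in type 1 where they differed. Of 9 measured chemokines, 4 fell (44.4%, against 8.83% of all genes tested), namely Ccl9 (-4.13), Ccl6 (-3.88), Cxcl2 (-3.47) and Ccl5 (-1.82), and none rose. Counts of these lists are descriptions, since the count filter could take a gene by type 2 alone. Of 14 chemokine receptors on the list only 2 were measured, and both fell, with Ccr1 at -4.12 and Ccr2 at -1.33 (-1.33 ± 0.34, adjusted p = 0.0180, edgeR). Cd14, the co-receptor for lipopolysaccharide, fell by 3.54 and Il1b, the inflammatory cytokine, by 1.70 (adjusted p = 0.0149, edgeR), although the Il1b values of the types overlapped, at 90.0, 20.6, 37.8 and 539 CPM in type 1 and at 501, 197, 258 and 691 CPM in type 2. Cxcl9, a chemokine that draws CXCR3-bearing T cells, averaged 167 ± 154 CPM in type 1 and 283 ± 116 CPM in type 2 and did not pass the test (-0.91 ± 0.35, adjusted p = 0.115, edgeR). Cxcl16 (-0.86, adjusted p = 0.0979), Cd86 (0.44, adjusted p = 0.625) and Cd40 (0.01, adjusted p = 0.997), the ligands and receptors through which dendritic cells meet T cells, did not pass the edgeR test either.

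Of 11 measured transcription factors, 4 rose (36.4%; Irf8, Id2 at 1.40, Batf3 and Cbfa2t3 at 1.28) and 2 fell (18.2%; Zeb2 at -3.15 and Cebpb at -2.53). Of 8 measured interferon-induced genes, 2 fell (Ifitm3 at -2.26 and Isg15 at -1.46), or 25% against 8.83% of all genes tested. Of 12 glycolysis and hypoxia genes, 1 rose (8.33%, near the 5.97% of all genes) and 5 fell (41.7%), with the lactate exporter Slc16a3 at -1.94 and the enolase gene Eno1 at -1.36. Of 16 lysosomal genes, 3 rose (18.8%) and 7 fell (43.8%), with Lamp1 at -2.74 and the protease Ctsh at -1.94. Of 18 genes of actin and membrane traffic, 6 rose (33.3%), among them Lsp1 (1.07) and Tmsb4x (0.89). Immediate early genes, which also respond to tissue digestion, fell in 5 of 13 cases (38.5%), with Ier3 at -2.03 and Junb at -1.33. None of 22 ribosomal protein genes and none of 9 mitochondrially encoded genes passed the edgeR test.

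**Figure D3:**
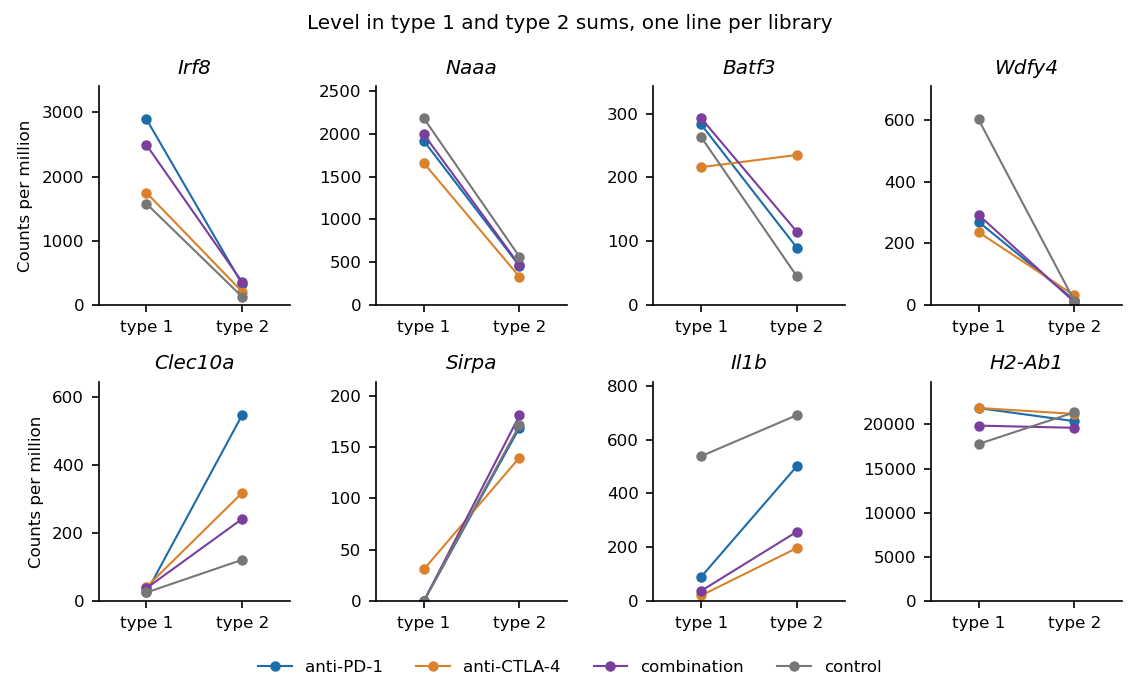
CPM of 8 genes in the type 1 sum (left) and the type 2 sum (right) of each library, 1 line per library. Irf8, Naaa and Wdfy4 lie higher in type 1 in every library and Clec10a and Sirpa lower, while Batf3 crosses under anti-CTLA-4 and the H2-Ab1 values of the types overlap.

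Set against the macrophage clusters, cluster 11 was at least 2-fold higher in all 4 libraries for 262 of 9643 genes (2.72%) and at least 2-fold lower for 311 (3.23%). These differences are descriptions, since the clusters were made from the same genes. The highest was Btla, at 65.4, 89.9, 163 and 103 CPM in cluster 11 of the anti-PD-1, anti-CTLA-4, combination and control libraries, against 0.203 to 1.64 CPM in macrophage clusters. Plet1 (mean log2 ratio 6.99), Cd209d, a lectin of the DC-SIGN family (6.500), AY761185 (6.48), Ccl17 (5.90), Cd24a (5.86) and Timd4 (4.96) followed. Jchain (5.61) had 701 UMIs in 9 cells of cluster 11, and 692 of them were in 1 cell with B cell markers. Under anti-PD-1 and anti-CTLA-4, Jchain was at 0 CPM in cluster 11 and in the macrophage clusters. In those libraries it passed only through the counts added to each sum. The lowest were Pf4, a chemokine of platelets and macrophages (-5.70), Saa3, an acute phase protein (-5.58), Ccl8 (-5.22), Arg1, the arginine-degrading enzyme arginase (-4.54), and Ms4a7 (-4.45). By list, 12 of 18 type 1 markers and 7 of 11 genes of either conventional type were higher, all 11 macrophage genes were lower (median -2.85), and 5 type 2 markers were higher and 2 lower of 15. H2-Ab1 stood at about the same level, at 19558 CPM in cluster 11 and 20448 CPM in macrophages.

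Against cluster 16, 115 of 4224 genes were higher in cluster 11 (2.72%) and 258 lower (6.11%). All 11 measured plasmacytoid dendritic cell markers were lower in cluster 11, with Siglech, a lectin of those cells, in 1.43% of cluster 11 and 93.0% of cluster 16. Atp1b1, Klk1b27 and Klk1 were at 0 UMIs in cluster 11 and at 655, 508 and 433 CPM in cluster 16. Higher in cluster 11 were Plet1 (6.73), Timd4 (5.39), Naaa (5.23) and Batf3 (4.59). Of 13 MHC class II pathway genes, 5 were higher in cluster 11 and none lower, with a median of 1.68. Cd209a, 1 of the sorting genes, was more frequent in cluster 16, in 20.4% of cells against 4.87% of cluster 11.

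Against cluster 17, 171 of 3894 genes were higher in cluster 11 (4.39%) and 190 lower (4.88%). Of 15 genes of migratory dendritic cells, 14 were lower in cluster 11. Ccr7 was at 25.1 CPM in cluster 11 and 2336 CPM in cluster 17, and Fscn1, an actin-bundling protein of mature dendritic cells, at 5.48 and 1737 CPM. Il12b, a subunit of interleukin 12, was at 3.33 CPM in cluster 11 (5 UMIs in 2 cells) and 419 CPM in cluster 17. Of 12 costimulatory and inhibitory genes, 6 were lower in cluster 11 and 2 higher. Naaa (4.02), Ckb, a creatine kinase (3.62), Rnase6 (3.03) and Alox5ap, which serves leukotriene synthesis (3.03), were higher in cluster 11.

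Within cluster 11, 209 of 3889 genes were at least 2-fold higher under anti-PD-1 than in control with a counting interval without 0 (5.37%) and 192 were lower (4.94%). Under anti-CTLA-4, 161 of 3689 were higher (4.36%) and 242 lower (6.56%), and under the combination 167 of 3746 were higher (4.46%) and 297 lower (7.93%). The 3 comparisons share the control library. Many of these calls rested on single cells: without the cell that held the most UMIs of the gene in each library, 94 and 83 of the anti-PD-1 calls, 74 and 128 of the anti-CTLA-4 calls and 82 and 169 of the combination calls (higher and lower) were still past the same limits. Without the 23 cells with B cell markers, an alternative added after the data were seen, 203 of 3785 genes were higher (5.36%) and 188 lower (4.97%) under anti-PD-1, 163 of 3613 higher (4.51%) and 227 lower (6.28%) under anti-CTLA-4, and 163 of 3633 higher (4.49%) and 293 lower (8.06%) under the combination. The median log2 ratio over all genes was 0.05, -0.04 and -0.10. Of all genes, 2124 of 3889, 1738 of 3689 and 1644 of 3746 were above control. Values of the treated libraries follow below in this same order.

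Chemokines that bind receptors of T helper 2 cells, eosinophils and monocytes were among the genes that differed most. Ccl17, a ligand of CCR4, had 268, 414 and 486 UMIs in the 3 treated libraries, against 4 UMIs in control, or 731, 1240.3 and 1341 CPM against 10.0 CPM. The UMIs came from 12, 15 and 22 cells in the treated libraries and from 3 cells in control, and the richest cell held 79, 128 and 131 of them, against 2 in control. The log2 ratios were 6.02 (4.81 to 8.07), 6.78 (5.58 to 8.83) and 6.89 (5.70 to 8.94). Of the 52 cells with Ccl17, 35 were of type 2, 4 of type 1 and 13 of neither, 2 held Ccr7 and none held Fscn1. In T cell cluster 3 the gene was at 11.6, 0 and 0.97 CPM in the treated libraries and 0 in control, and the part of free RNA was not tested. Ccl17 was also higher in cluster 17, at 1325, 1436 and 3683 CPM against 95.5 CPM in control, and in the macrophage clusters at a much lower level, 6.83, 20.9 and 18.04 CPM against 0.329 CPM.

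Ccl24, a ligand of the eosinophil receptor CCR3, had 264, 166 and 45 UMIs in the treated libraries, in 25, 19 and 13 cells, against 1 UMI in control (log2 ratios 7.58, 7.05 and 5.06). Its order over the treated libraries, highest under anti-PD-1 and lowest under the combination, differed from that of Ccl17. In type 2 cells it had 124, 129 and 36 UMIs against 0 in control, at least 46.2-fold, 54.2-fold and 13.04-fold higher against a floor of 3 counts in the control library, while type 1 cells held 2, 5 and 1 UMIs against 0. T cell cluster 3 held 86.7, 7.96 and 19.4 CPM of Ccl24 in the treated libraries and 0 in control, against 720, 497 and 124 CPM in the treated cells of cluster 11 and 2.51 CPM in control, and the part of free RNA was not tested. Ccl22, the other known CCR4 ligand, had 38, 48 and 14 UMIs against 7 in control, with log2 ratios of 2.48 (1.38 to 3.97), 2.95 (1.88 to 4.42) and 1.09 (-0.27 to 2.69).

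Ear2, an eosinophil-type ribonuclease gene, had 15, 78 and 118 UMIs in the treated libraries against 6 in control, and was past the 2-fold limit under anti-CTLA-4 (3.85, 2.77 to 5.44) and the combination (4.32, 3.27 to 5.91) but not under anti-PD-1 (1.37, -0.01 to 3.09). Rnase2a, of the same gene family, had 11, 11 and 33 UMIs against 0 in control. Reads of related genes of this family may be hard to tell apart, so the level of each is uncertain. Retnla, a secreted protein of alternatively activated macrophages, had 1, 291 and 162 UMIs against 0, at least 116-fold and 59.3-fold higher under anti-CTLA-4 and the combination, although 181 of the 291 UMIs came from 1 cell. T cell cluster 3 held 0 to 2 UMIs of Ear2, Rnase2a and Retnla in each library. Cd209d was higher in the 3 treated libraries, with 68, 64 and 38 UMIs against 8 in control (3.13, 3.18 and 2.32), and 24 of the 38 combination UMIs came from 1 cell.

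For Arg1 and Ccl8 the same direction appeared in cells that should lack them. Arg1 was at 174, 86.9 and 141 CPM in cluster 11 of the treated libraries against 7.53 CPM in control, and T cell cluster 3 was at 77.0, 23.9 and 132 CPM against 5.90 CPM. The macrophage clusters were at 1994, 1519 and 4093 CPM against 454 CPM in control. In type 1 cells of the combination library, Arg1 was found as 1 UMI in each of 10 cells. Ccl8 was at 303, 581 and 596 CPM in cluster 11 against 65.3 CPM in control, and at 349, 98.7 and 434 CPM in T cell cluster 3 against 64.9 CPM. For these genes the level of cluster 11 under the combination was close to that of T cell cluster 3, and the part of free RNA was not tested. Gm15056 was highest under anti-PD-1, at 165, 24 and 28 UMIs against 13 in control.

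**Figure D4:**
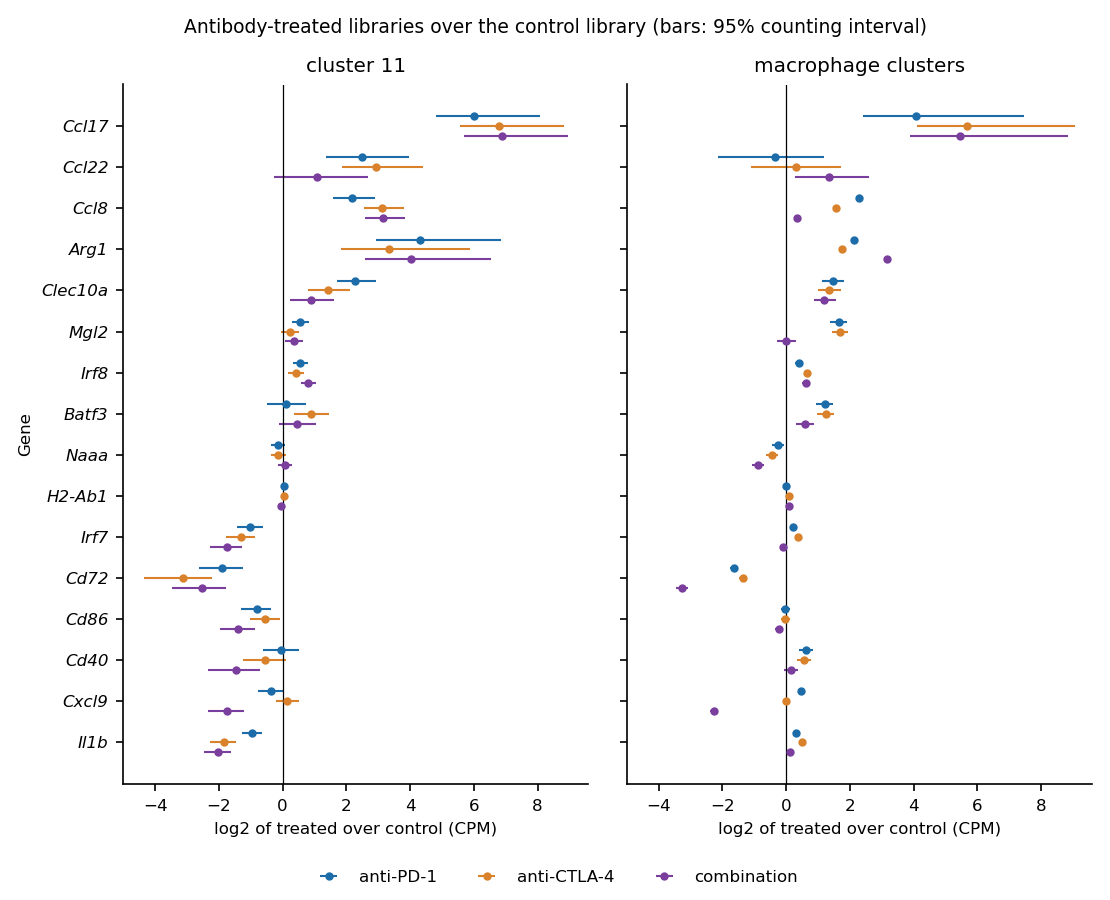
log2 ratio of each treated library to control (horizontal, with 95% counting intervals) for 16 genes in cluster 11 (left) and in the macrophage clusters (right). Ccl17 lies above 6 in cluster 11 with all 3 treatments, while Il1b, Cd86 and Irf7 lie below 0 in cluster 11 and near or above 0 in macrophages, Cd86 excepted under the combination at -0.22.

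Identity genes of the subsets differed less. Irf8 was at 900, 812 and 1068 CPM in the treated libraries against 610 CPM in control, log2 ratios of 0.56 (0.32 to 0.81), 0.41 (0.16 to 0.67) and 0.81 (0.57 to 1.04), all under the 2-fold limit. Within type 1 the ratios were 0.87, 0.15 and 0.66, and within type 2 1.30, 0.67 and 1.45, where 49 of the 66 combination UMIs came from 1 cell. T cell cluster 3 had ratios of 0.53, 0.25 and 0.56 for the same gene. Batf3 in type 2 cells had 16, 37 and 21 UMIs in the treated libraries against 9 in control, with ratios of 0.96 (-0.28 to 2.35), 2.31 (1.30 to 3.61) and 1.30 (0.15 to 2.65). Naaa (-0.14, -0.13 and 0.08) and H2-Ab1 (0.05, 0.05 and -0.04) lay within 0.2 of control on the log2 scale. Clec10a was higher, with 136, 68 and 51 UMIs against 30 in control, or 2.28 (1.72 to 2.92), 1.42 (0.80 to 2.11) and 0.89 (0.22 to 1.60), and within type 2 it was at 2.15, 1.38 and 0.98. T cell cluster 3 held at most 5 Clec10a UMIs in a library, and cluster 16 was at 0.88, 1.03 and 0.78. Mgl2, the sorting gene, was at 747, 599 and 646 CPM against 507 CPM in control.

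Il1b was lower in each treated library, with 127, 62 and 60 UMIs against 268 in control, or 346, 186 and 166 CPM against 673 CPM. The log2 ratios were -0.96 (-1.28 to -0.65), -1.85 (-2.28 to -1.45) and -2.01 (-2.45 to -1.61), and in type 2 cells -0.46, -1.79 and -1.41. In type 1 cells 37 of the 43 control UMIs were in 1 cell. The macrophage clusters went the other way by a small amount, at 0.32, 0.51 and 0.12, and T cell cluster 3 was at 0.35, 0.11 and -0.90. Il1b was also lower in cluster 16, at -1.49 (-2.39 to -0.74), -1.75 (-2.86 to -0.89) and -0.23 (-0.86 to 0.34), while cluster 17 was at 0.50, -0.93 and 0.12. Of 7 measured cytokines, 1, 4 and 4 were past the 2-fold limit and lower in the treated libraries, against 4.94%, 6.56% and 7.93% of all genes. Ltb, a subunit of lymphotoxin, was lower in all 3 (20, 19 and 20 UMIs against 78), and Osm, oncostatin M, had 43, 14 and 6 UMIs against 45, with 22 of the control UMIs in 1 cell. Il1rn, the antagonist of interleukin 1, was higher under the combination (48 against 24 UMIs), and 33 of the 48 were in 1 cell.

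Of the costimulatory and inhibitory genes, Cd86, Cd40 and Havcr2 were at least 2-fold lower under the combination in the whole cluster. Cd86, a ligand of CD28 and CTLA-4, had 59, 65 and 39 UMIs in 31, 27 and 27 cells of the treated libraries, against 113 UMIs in 49 cells of control. The log2 ratios were -0.81 (-1.30 to -0.35), -0.54 (-1.01 to -0.09) and -1.39 (-1.96 to -0.86). Under the combination it was lower within both types, at -1.57 in type 1 and -1.17 in type 2, while under anti-CTLA-4 the types were at 0.39 (-0.39 to 1.22) and -1.99 (-3.12 to -1.09). The macrophage clusters were at -0.02, -0.03 and -0.22 for Cd86, and cluster 17 was at 0.92, 1.62 and 0.25. Cd40, through which T cells license dendritic cells, had 50, 32 and 18 UMIs against 56, with a ratio of -1.47 (-2.36 to -0.71) for the combination. Of the list, 1 of 12, 1 of 11 and 3 of 10 measured genes were past the limit and lower, and none higher, and 4, 4 and 3 were above control. Of all genes, 4.94%, 6.56% and 7.93% were lower by the limit, so the counts under the single antibodies were near these shares. Above control were 2124 of 3889, 1738 of 3689 and 1644 of 3746 of all genes. Havcr2, which encodes TIM-3, was lower in all 3 (12, 14 and 15 UMIs against 36). Within type 2 under the combination, 2 of 7 genes of this list were higher and 2 lower by the limit, with a median of -0.00027, and in type 1 3 of 4 were lower. Cd274, which encodes PD-L1, was at 0.66, -0.12 and -0.31 in cluster 11, each interval holding 0, against 1.39, 1.70 and 1.63 in the macrophage clusters. Cd72, a receptor of B cells and myeloid cells, was lower in all 3, with 24, 9 and 15 UMIs against 98 UMIs in 35 control cells, and it was lower in the macrophage clusters (-1.63, -1.36 and -3.26) and in T cell cluster 3 (2, 1 and 3 UMIs against 17) as well.

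Interferon-induced genes lay mostly below control in the combination library. Of 17 measured genes 1 was above control, 6 were at least 2-fold lower and none higher, and the median was -0.57, against -0.10 over all genes. Of all genes, 1644 of 3746 were above control and 7.93% were lower by the limit. Under anti-PD-1, 12 of 20 were above control (2 higher and 1 lower by the limit, median 0.14), and under anti-CTLA-4 7 of 18 (none higher, 3 lower, median -0.21). Of all genes, 2124 of 3889 and 1738 of 3689 were above control, so the anti-PD-1 count was near the share of all genes. Irf7, the factor that amplifies type I interferon production, was at 204, 168 and 121 CPM against 414 CPM in control, with 38 of the 165 control UMIs in 1 cell. Its ratios were -1.01 (-1.43 to -0.62), -1.30 (-1.77 to -0.86) and -1.76 (-2.29 to -1.28), and in type 2 cells -1.45, -1.32 and -1.68. The macrophage clusters were at 0.21, 0.38 and -0.09, cluster 16 at -0.29, -0.49 and -0.18 and cluster 17 at 0.80, 1.60 and 0.56 for Irf7. Isg15, a ubiquitin-like protein, had 77, 46 and 26 UMIs against 75, and Rtp4 and Xaf1 were lower under the combination by -1.20 and -1.22. T cell cluster 3 had 55.9, 92.3 and 90.2 CPM of Isg15 in the treated libraries and 48.7 CPM in control, the opposite direction to cluster 11 under the combination.

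Targets of interferon gamma were mostly above control under anti-PD-1 and mostly below it under the combination in the whole cluster, but not in each type. Of 16 measured GTPases and other targets, 15 were above control under anti-PD-1 (3 at least 2-fold higher, namely Gbp2, Gbp4 and Tgtp1, median 0.64), 11 under anti-CTLA-4 (median 0.16) and 2 under the combination (5 at least 2-fold lower, median -0.60). Of all genes, 2124 of 3889, 1738 of 3689 and 1644 of 3746 were above control. In type 2 cells, 13 of 14 were above control under anti-PD-1 (median 0.93), 10 of 11 under anti-CTLA-4 (median 0.67) and 5 of 11 under the combination (median -0.00027). Of all genes of type 2, 1395 of 2380, 1089 of 2177 and 1139 of 2273 were above control. In type 1 cells, where 5 were measured, 1, 1 and 0 were above control, with medians of -0.98, -0.62 and -1.57. Of all genes of type 1, 493 of 1081, 495 of 1159 and 501 of 1176 were above control. Iigp1, an immunity-related GTPase, was at 447, 213 and 88.3 CPM against 286 CPM in control, where 34 of the 114 UMIs were in 1 cell, and T cell cluster 3 was at 42.4, 11.1 and 21.3 CPM against 59.0 CPM. Gbp2, a guanylate-binding protein, had a ratio of 1.21 (0.61 to 1.87) under anti-PD-1. Cxcl9 was at 251, 360 and 96.6 CPM against 324 CPM, with ratios of -0.37 (-0.77 to 0.03), 0.15 (-0.22 to 0.52) and -1.73 (-2.33 to -1.20), and the macrophage clusters were at 0.46, -0.02 and -2.25, cluster 17 at -1.16, -1.29 and -1.59 and T cell cluster 3 at 1.10, -1.54 and -1.21. Under the combination it was lower in both types, at -3.53 in type 1 and -1.69 in type 2. Cxcl10, its relative, had 65, 9 and 10 UMIs against 24.

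**Figure D5:**
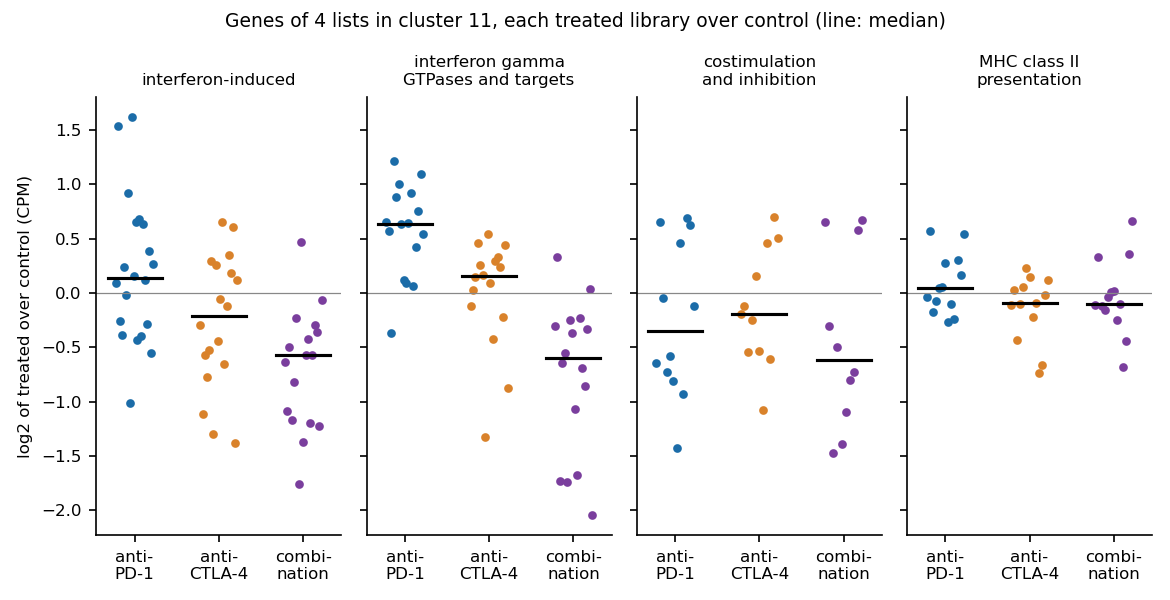
log2 ratio of each treated library to control in cluster 11 for the measured genes of 4 lists (1 point per gene, horizontal line at the median). Interferon-induced genes have medians of 0.14, -0.21 and -0.57, and MHC class II presentation genes of 0.05, -0.09 and -0.10.

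In the whole cluster, the MHC class II and class I lists held no gene past the 2-fold limit in any treated library (13 and 20 genes measured), with medians between -0.10 and 0.05, and neither did the 22 ribosomal protein genes. Within the types some class I and class II genes were past the limit. In type 2, class I genes were higher in 4, 1 and 1 cases and lower in 1, 0 and 0 of 20, and class II genes were lower in 0, 2 and 2 of 13. In type 1, class I genes were higher in 0, 1 and 1 cases and lower in 1, 1 and 3 of 15, 16 and 17, and 1 of 11 class II genes was higher under anti-PD-1. The shares over all genes of each type are given in the next paragraph. Heat shock genes were above control in 11 of 11 cases under anti-PD-1, against 2124 of 3889 of all genes (median 0.51, 3 past the limit), led by Hspa1a with 278 UMIs against 77. Immediate early genes were above control in 15 of 17 cases under the combination, against 1644 of 3746 of all genes (median 0.36, 2 past the limit), led by Fosb at 1.62 (0.87 to 2.48). Both lists also respond to handling of tissue, whose part was not tested. Of the glycolysis and hypoxia list, 3 of 20 were higher under anti-PD-1, 3 of 18 under anti-CTLA-4 and 1 of 17 under the combination. Of all genes, 5.37%, 4.36% and 4.46% were higher. Among the genes of the list was the lipid droplet protein Hilpda, with 54 UMIs under anti-CTLA-4 and 35 under the combination against 10 in control. Of the macrophage list, 6, 7 and 7 of 10 genes were above control, against 2124 of 3889, 1738 of 3689 and 1644 of 3746 of all genes. The summed list in type 2 was at 5863, 9813 and 9691 CPM against 4676 CPM in control, while the macrophage clusters themselves were at 32583, 30583 and 27166 CPM against 37410 CPM.

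Within the subsets the shares of called genes were of the same order. In type 1, 65 of 1081 genes were higher under anti-PD-1 (6.01%) and 85 lower (7.86%), 65 of 1159 higher under anti-CTLA-4 (5.61%) and 97 lower (8.37%), and 70 of 1176 higher under the combination (5.95%) and 131 lower (11.1%). In type 2, 211 of 2380 were higher under anti-PD-1 (8.87%) and 135 lower (5.67%), 160 of 2177 higher under anti-CTLA-4 (7.35%) and 172 lower (7.9%), and 166 of 2273 higher under the combination (7.3%) and 167 lower (7.35%). Type 1 in control rested on 11 cells, so single cells weigh more there. Interferon-induced genes measured in type 2 under the combination were below control in 12 of 12 cases (median -0.99) and in type 1 in 5 of 6 (median -1.005). Of all genes, 1139 of 2273 in type 2 and 501 of 1176 in type 1 were above control. Chemokines measured in type 2 (13, 10 and 12) had medians of 1.71, 1.55 and 1.93, and those measured in type 1 (4, 5 and 3) of 0.26, 1.21 and -1.46.

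The genes with the most extreme ratios by rule often rested on 1 cell. Of the 36 places for the 6 highest and 6 lowest genes of each comparison, 18 were held by genes with more than 50% of the UMIs of the higher library in 1 cell, 5 of 18 among the higher and 13 of 18 among the lower genes. Gtf2h1, Nudt9, Tnpo1, Abt1, Tada1, Mybbp1a, Mmp12 and Eif2ak2 were such genes on the lower side, and Kynu, Alas1, Taf1d, Ccl8 and Dock8 on the higher side. Upp1, a uridine phosphorylase, was not: it had 40, 61 and 2 UMIs in the treated libraries, against 41 UMIs in 18 cells of control, a ratio of -3.92 (-7.31 to -2.28) for the combination. Snrnp48, a spliceosome component, had 8, 8 and 11 UMIs against 88, with 43 in 1 control cell. Zbtb46 had 49 UMIs under anti-PD-1, 40 of them in 1 cell, and 3 and 8 UMIs under anti-CTLA-4 and the combination against 5 in control. Il12b, Nos2, Il15, Tlr3, Irf4, Cd80 and Ccr7 had between 0 and 15 UMIs in every library of cluster 11, which was too few to describe a difference.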

How the data were processed

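Tumour-infiltrating CD45+ cells were measured by 3′ single-cell RNA sequencing in 4 libraries, 1 per antibody group. Per the submitters' processing notes, Cell Ranger, Seurat and mm10 were used; the sources used here name no versions, steps or cell filters. The deposited matrices hold whole-number UMI counts per gene and cell. The authors' deposited table of cells gives each cell's library and cluster number, with no other unit; cluster numbers were used as deposited, and 2 listed cells had no matrix column. Library totals ran from 11176246 to 13374294 counts over 3336 to 3945 cells. The number of tumours in a library is unknown. With the library as a block, p-values measure how the difference between the types varies over libraries, which also differ in antibody.

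Counts were summed by library and cell set. Type 1 against type 2 was tested with edgeR 4.0.16 in R 4.3.3 (glmQLFit and glmQLFTest, TMM, filterByExpr, library as block, Benjamini-Hochberg, threshold 0.05); DESeq2 1.42.0 was an alternative. Data were simulated from the means of 1610 genes in the real sums, and 1523 of them passed the count filter. Changed genes that passed it were recovered in 55.6%, 98.0%, 100% and 100% of cases at log2 changes of 1, 2, 3 and 4. Of the calls, 5.46% were false. For 1 library against another, the ratio of summed counts, 0.5 added to each, per total counts was given with an exact conditional binomial 95% interval, among genes with at least 20 counts over both libraries; past the limit means at least 2-fold with an interval without 0. For clusters, at least 50 counts over both sets and at least 2-fold in all 4 libraries were required, with 0.5 counts added to each sum. A gene at 0 CPM in both sets of a library therefore leaned toward the set with the smaller total and could pass there. Shares have Clopper-Pearson intervals. Intervals and floors of 3 counts cover counting error only. No doublet caller was run; cells with UMIs of T, B or NK cell genes were left out as an alternative.

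Genes were named by rule: a list of 30 genes; the 8 highest and 5 lowest in each cluster comparison at 100 CPM or more; the 10 highest and 10 lowest past the threshold and alike in 4 libraries between types; the 6 highest and 6 lowest by treatment with 30 counts in 10 cells; and up to 4 members of each list. Cells with B cell markers, the leading genes, and the other list genes past a limit were named after their values were seen. The cells, lists and rules were chosen with earlier results of these data known. Figures used matplotlib 3.10.9 under Python 3.11.15.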

Additional observations from a re-analysis of the deposited data

Results flagged for a closer look

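For 4 genes the type 1 and type 2 cells of a treated library lay on opposite sides of control, each with a counting interval without 0; the difference between the types was not tested, since each group is 1 library. Cdk4, a kinase of the cell cycle, was at -1.78 (-3.68 to -0.34) in type 1 and 1.47 (0.16 to 3.05) in type 2 with anti-CTLA-4 on the log2 scale, from 5 against 15 and 16 against 7 UMIs. Gng12, a G protein subunit, was at -1.32 (-2.60 to -0.20) in type 1 and 1.21 (0.01 to 2.60) in type 2 with anti-CTLA-4. Calr, the chaperone calreticulin, was at -1.37 (-2.14 to -0.66) in type 1 and 1.03 (0.45 to 1.66) in type 2 with the combination. Cope, a coatomer subunit, was at -1.15 (-2.15 to -0.22) in type 1 and 1.56 (0.97 to 2.22) in type 2 with the combination. Control type 1 held 11 cells, 6 to 10 of them with a UMI of the gene.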

How the results depend on the processing

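Between antibody groups no paired analysis was possible because each is 1 library. The types were compared with the library as a block, and without it 98 genes were higher and 131 lower. Thinning every cell to 1000 UMIs gave a share of type 1 cells of 18.2% with anti-PD-1 and 21.1% with the combination, and cut the genes called higher and lower against control to 70 and 38 with anti-PD-1, 60 and 51 with anti-CTLA-4, and 54 and 76 with the combination; the thinned tables hold fewer counts. Without the cell holding most UMIs of a gene in each library, the counts were 109 and 94 with anti-PD-1, 85 and 152 with anti-CTLA-4, and 93 higher with the combination. Between the types, no filter on low counts gave 362 lower genes of 11361, thinning 24 higher and 42 lower of 402, and leaving out cells with a C1q UMI, chosen after the data were seen, 26 higher and 50 lower of 657. Leaving out each library gave 53 to 81 higher and 105 to 144 lower genes, the lowest higher count without the combination library; DESeq2 gave 65 and 108. Directions of treated ratios turned in 3 cases: Cxcl10 with anti-PD-1 with the types at equal weight (-0.46), H2-Ab1 with anti-PD-1 under median-of-ratios scaling (-0.00255), and Irf8 with anti-CTLA-4 after thinning (-0.18). Between the types, directions turned for 3 genes that did not pass the test: Cd40 under median-of-ratios scaling (-0.00427), with no filter (-0.23), with DESeq2 (-0.32) and over libraries left out (-0.46 to 0.76), Cd86 over libraries left out (-0.25 to 0.71), and H2-Ab1 with no filter (-0.14) and after thinning (-0.077). The causes were not tested. That scaling moved all genes by 0.16 in type 1 with the combination, 0.11 with anti-CTLA-4 and -0.13 in type 2 with anti-PD-1 on the log2 scale, and by under 0.09 in the whole cluster. Of the other settings for single genes, 514 treated ratios stayed within their limits and 71 moved; of cluster 11 over other clusters, taken in the lowest or highest of the 4 libraries, 58 stayed and 90 moved; between types 311 kept their direction and call, 11 gained and 13 lost it. The 11 control cells of type 1 limit the treated comparisons in that type.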
